A study of Mus musculus with 8 samples.

Results

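The secreted and membrane-bound metalloproteinases of the MMP, ADAM and ADAMTS families and their TIMP inhibitors were examined in mouse squamous carcinoma cells given miR-193b-3p or miR-365a-3p. The genes were found by name, as Mmp, Timp, Adam or Adamts followed by a number, among the probes of an Agilent mouse array. The rule found 79 of 30199 gene names, namely 33 Adam, 19 Adamts, 23 Mmp and 4 Timp genes, on 117 of 39429 probes. A gene with several probes, as 33 of them had, was represented by its brightest probe.

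The cells were mSCC-20, a line labelled as cutaneous squamous cell carcinoma of the FVB/N strain, and their total RNA was hybridised in one colour (Cy3) to 8 arrays. Of these, 2 carried RNA of cells transfected with miR-193b, 2 of cells transfected with miR-365a and 4 of cells transfected with the control microRNA (NC). The labels give an amount of 0.2 µg for both miR-193b arrays and NC arrays 1 and 2, called the 0.2 set, and of 0.6 µg for both miR-365a arrays and NC arrays 3 and 4, called the 0.6 set. The NC arrays set against each microRNA are those with its amount label, and no NC array serves in both comparisons. The RNA integrity number was 10 for every sample. All arrays come from a single cell line. Whether replicates came from different cultures is not in the labels, and a p-value here covers the variation among these arrays, which may be technical.

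MMPs cleave collagens, other matrix proteins and many secreted factors, and are held in check by TIMPs, which bind their active sites. ADAM proteases sit in the cell membrane and cut the outer parts of other membrane proteins, releasing growth factors and receptors, while ADAMTS proteases are secreted and cut proteoglycans and procollagens. In squamous carcinoma these enzymes are known for basement membrane crossing and for the release of EGF receptor ligands.

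The transfected microRNAs are shown with the seed, bases 2 to 8, in capitals, since the seed is the part that pairs with target transcripts. Both sequences are those of RefSeq (GRCm38.p6), where the hairpins lie 4238 bases apart on the plus strand of chromosome 16. The arm of miR-365 is listed there as miR-365-3p.
mmu-miR-193b-3p: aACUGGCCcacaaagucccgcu
mmu-miR-365-3p: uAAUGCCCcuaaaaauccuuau
The seeds differ, so the microRNAs share no seed family. The letters opposite the miR-193b seed, GGCCAGT, stood in 1 of the 117 member probes, that of Adam11 (0.294% of all probes held them). Those opposite the miR-365 seed, GGGCATT, stood in 0 of the 117 (0.312% of all probes). A probe covers a small part of a transcript, and whole 3′ ends were not searched.

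The share of gene spots well above background was 51.4% to 54.6% on arrays with the 0.2 µg label and 58.9% to 62.1% on those with 0.6 µg, and 0 spots were saturated. All 10 keratinocyte markers exceeded background clearly on each of the 8 arrays. Of the 8 fibroblast markers 1, Pdgfra, was well above background on all arrays, and Col3a1, Dcn and Lum were on none. Of the 7 leukocyte markers 4, Csf1r, Itgam, Cd68 and Cd3e, were above it on all arrays, and Lyz2 was on none. Of the 5 endothelial markers Kdr and Esam were above it on all arrays, and Cdh5 and Tek on none. Of the 5 melanocyte markers Mlana and Mitf were above it on all arrays, and Dct on none. The summed fibroblast marker level was 0.123 to 0.219 on miR-365a arrays and 0.149 to 0.304 on NC arrays of the 0.6 set, against 719 to 861 and 716 to 803 for the keratinocyte markers, in units of each array's 75th percentile. The summed leukocyte marker level was 9.22 to 10.2 on miR-365a arrays and 6.38 to 8.2 on NC arrays of that set. In the 0.2 set the fibroblast sum was 0.138 to 0.148 on miR-193b arrays and 0.114 to 0.13 on NC arrays, and the leukocyte sum 4.78 to 4.92 and 4.52 to 4.85. The endothelial sum was 3.58 to 4.89 on miR-365a arrays and 3.48 to 4.4 on their NC arrays, and 1.35 to 1.57 on miR-193b arrays and 1.2 to 1.64 on theirs. The melanocyte sum was 1.3 to 1.35 on miR-365a arrays and 1.71 to 1.94 on their NC arrays, and 1.95 to 2.24 on miR-193b arrays and 1.47 to 1.73 on theirs. Csf1r among the leukocyte markers rose by 1.90 on the log2 scale after miR-365a (limma adjusted p = 0.0129). Pdgfrb was well above background on the miR-365a arrays alone, so no size is given for it. Of the 4 fibroblast markers tested, 1, Pdgfrb, had a difference above 0 after miR-365a (median -0.24). Of the 4 leukocyte markers tested, 3 had (median 0.4). At an adjusted p under 0.05 in limma, Krt8 was also higher and Itga6 and Mitf lower after miR-365a, and Esam higher after miR-193b. The part of these markers in the protease results was not tested.

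Levels below are log2 processed signals minus the array's 75th percentile, and differences are microRNA minus NC on that log2 scale. A level does not compare one gene with another, because probes differ in brightness. To be tested, a gene had to exceed background clearly on both arrays of 1 or more of the combinations of transfection and set. This held for 30 of the 79 genes (38%), against 59.2% of all gene names on the array. By family, 2 of 4 Timp, 14 of 33 Adam, 7 of 19 Adamts and 7 of 23 Mmp genes passed. Since a gene could pass through the group in which it was high, the genes that passed are not a sample of all 79. Adam5, Adam19, Adamts8, Adamts10, Adamts17 and Mmp24 passed through the 0.6 set and were well above background on none of the 4 arrays of the 0.2 set, so no size is given for them there. On all 8 arrays 19 genes were well above background (48.3% of all names), and on none were 33 (31.5% of all names). The genes on no array were Adam1a, Adam1b, Adam2, Adam6a, Adam7, Adam18, Adam20, Adam21, Adam22, Adam24, Adam28, Adam29, Adam34, Adam39, Adamts5, Adamts6, Adamts12, Adamts13, Adamts16, Adamts18, Adamts19, Adamts20, Mmp1a, Mmp7, Mmp8, Mmp12, Mmp16, Mmp19, Mmp20, Mmp21, Mmp23, Mmp25 and Mmp28. Many of the ADAMs among them are known for expression in testis. A further 11 genes were above background on 1 array, namely Adam3, Adam23, Adam30, Adamts2, Adamts3, Adamts9, Adamts14, Mmp2, Mmp27, Timp3 and Timp4. Adam25 and Adam26a were above it on 2 arrays, Mmp15 on 3, and Mmp10 and Mmp13 on 4.

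After miR-193b, 0 of the 30 genes tested were called higher and 1, Timp2, was called lower at an adjusted p under 0.05 in limma. Of all 17865 genes in the fit, 2.85% were called after miR-193b and 1.14% were called lower. After miR-365a, Adam32, Adamts7, Mmp11 and Timp2 were called higher and Adam10, Adam17 and Adamts1 lower, 7 of 30, where 15.8% of all genes were called, 7.79% higher and 8.01% lower. The median difference of the 30 was 0.01 after miR-193b and 0.11 after miR-365a, against medians over all genes tested of 0.05 and 0.02. Without adjustment 6 of the 30 passed 0.05 after miR-193b, where 21.3% of all genes did, and 11 passed after miR-365a, where 31.2% did. The groups' arrays did not overlap for 18 of 30 after miR-193b, against 52.1% of all genes, and for 17 of 30 after miR-365a, against 61.6%.

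**Figure D1:**
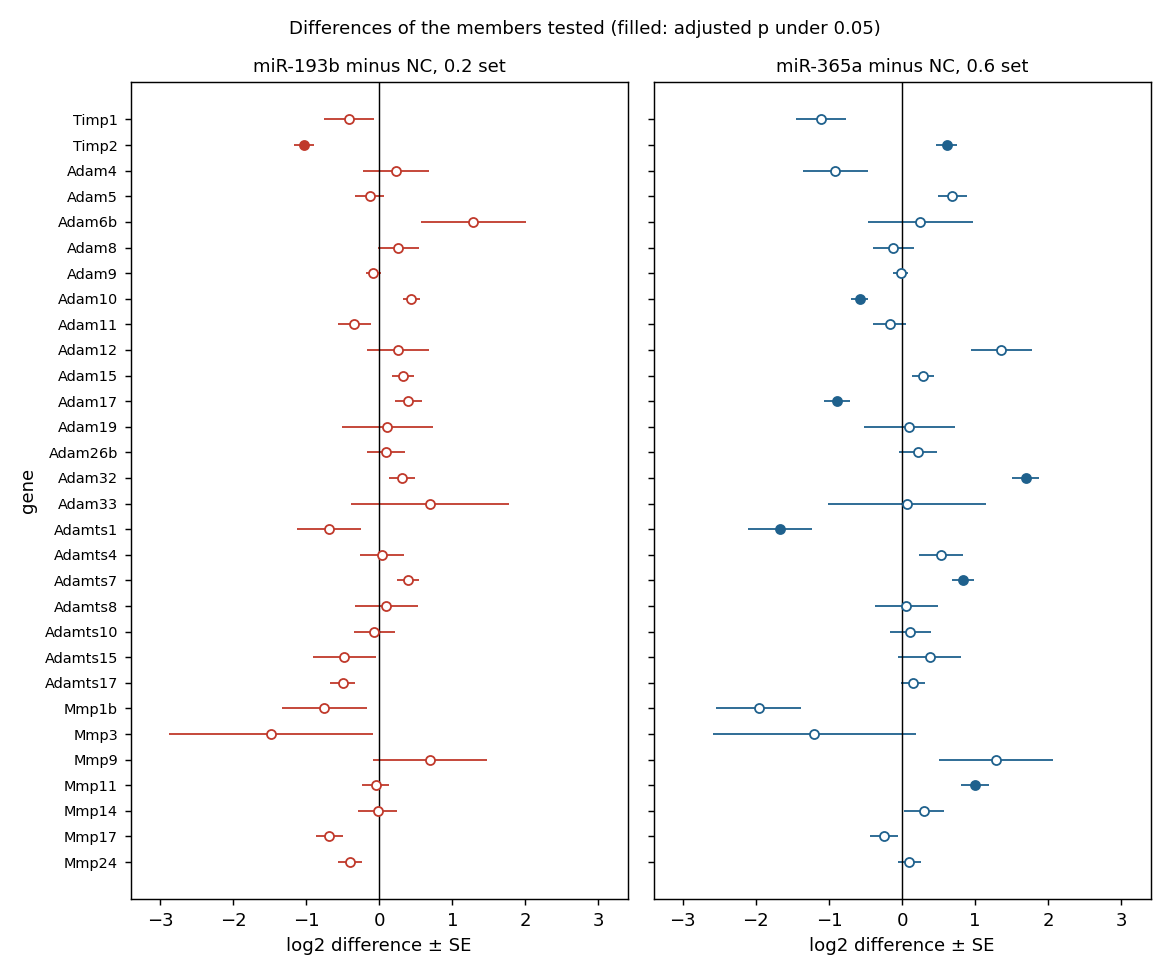
Log2 difference ± SE of the 30 genes tested, microRNA minus NC within the set (left, miR-193b, right, miR-365a, 2 arrays per group, each gene a row); filled points passed an adjusted p of 0.05. After miR-193b 1 point is filled, Timp2, and after miR-365a 7 are filled, 4 right and 3 left of 0. The miR-193b points of Adam5, Adam19, Adamts8, Adamts10, Adamts17 and Mmp24 rest on signals not well above background.

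Timp2, an inhibitor that also helps membrane-bound MMP14 to activate pro-MMP2, was the member called in both comparisons, with opposite signs in the brightest probe. That probe (mm9, chromosome 11, 118163205 to 118163146, minus strand) read 3.21 and 3.02 on the miR-193b arrays, against 4.12 and 4.17 on the NC arrays of the 0.2 set. It read 4.24 and 4.21 on the miR-365a arrays, against 3.77 and 3.46 on the NC arrays of the 0.6 set. The groups did not overlap in either set. In the 0.2 set the miR-193b arrays were the low ones, and in the 0.6 set the miR-365a arrays were the high ones. The fitted difference was -1.03 ± 0.14 after miR-193b (SE, 2.04-fold lower, limma adjusted p = 0.0308) and 0.61 ± 0.14 after miR-365a (1.52-fold higher, limma adjusted p = 0.038). Within slide 1, which held miR-193b array 1 and NC array 1, the Timp2 difference was -0.91, and from slides 2 and 3, with 1 array of each, it was -1.14. All arrays of the 0.6 set shared slide 4.

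The second Timp2 probe did not repeat the miR-193b difference. It starts at base 652 of the transcript (mm9, chromosome 11, 118178741 to 118171964, minus strand, a span longer than the probe), and the brightest probe at base 2791. The second probe read 3.12 and 2.98 on the miR-193b arrays, against 2.89 and 2.57 on their NC arrays, a difference of 0.32 ± 0.17 with a limma adjusted p of 0.341. On this probe the miR-193b arrays were the higher ones, so its direction was opposite to that of the brightest probe. After miR-365a it read 2.78 and 2.57, against 2.33 and 2.05 on NC arrays, a difference of 0.49 ± 0.17 (limma adjusted p = 0.112) in the same direction as the brightest probe. The lower Timp2 after miR-193b therefore rests on the probe nearer the 3′ end alone. It was also no longer called when either miR-193b array, NC array 1, NC array 2 or either miR-365a array was left out (limma adjusted p of 0.0659 to 0.117), though the difference stayed between -1.12 and -0.93. The rise after miR-365a was lost with any 1 of the 8 arrays left out (limma adjusted p of 0.0521 to 0.159).

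**Figure D2:**
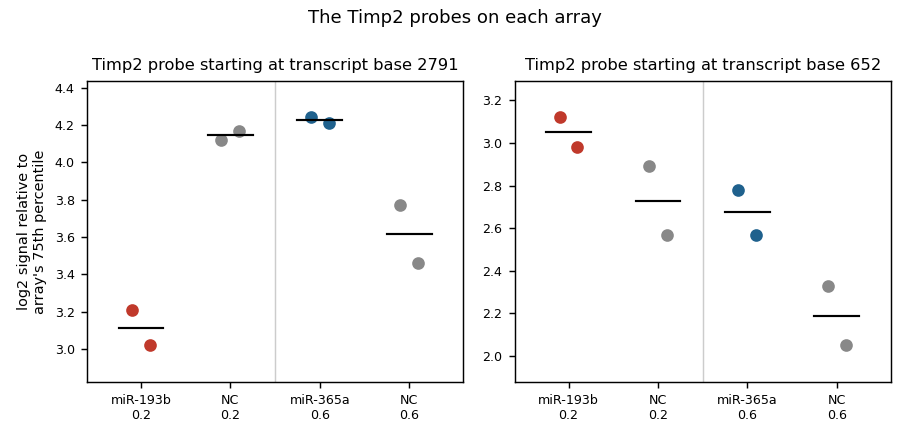
Level of Timp2 on each array (points, log2 relative to the array's 75th percentile) with group means (lines), for the probe starting at transcript base 2791 (left) and the one starting at base 652 (right). On the left the miR-193b arrays, at 3.21 and 3.02, lie below their NC arrays, and on the right they lie above them at 3.12 and 2.98.

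Timp1, the inducible TIMP, read 4.05 and 3.48 on miR-193b arrays, against 4.22 and 4.13 on NC arrays of the 0.2 set. It read 3.12 and 3.64 on miR-365a arrays, against 4.06 and 4.93 on NC arrays of the 0.6 set. In both sets every microRNA array lay below its NC arrays, but the NC arrays of the 0.6 set were far apart. The difference after miR-365a was -1.11 ± 0.34 (limma adjusted p = 0.0783), and after miR-193b -0.41 ± 0.34 (limma adjusted p = 0.514). Timp1 was called after miR-365a with normexp background correction (-1.10, limma adjusted p = 0.0402). Timp3, the matrix-bound TIMP, read -7.40 and -8.00 on miR-193b arrays, against -2.67 and -7.90 on NC arrays, and -8.70 and -8.90 on miR-365a arrays, against -8.65 and -8.41. It was well above background on NC array 1 alone. Timp4 read -7.04 and -7.60 on miR-193b arrays, against -7.28 and -7.24, and -6.37 and -6.53 on miR-365a arrays, against -5.86 and -6.61. It was well above background on 1 NC array of the 0.6 set.

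Adam10, which cuts Notch, E-cadherin and CD44, fell after miR-365a. Its probe (mm9, chromosome 9, 70627859 to 70627918) read 1.18 and 1.32 on miR-365a arrays, against 1.85 and 1.81 on NC arrays of that set. It read 2.04 and 2.10 on miR-193b arrays, against 1.54 and 1.71 on their NC arrays. All miR-365a arrays were below, and all miR-193b arrays above, the NC arrays of their set. The difference after miR-365a was -0.58 ± 0.12 (1.5-fold lower, limma adjusted p = 0.0257). After miR-193b it was 0.44 ± 0.12 and did not pass (limma adjusted p = 0.107). It did with pairs of arrays, formed after the values were seen, as a random block (limma adjusted p = 0.0243).

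Adam17, the TNF-alpha converting enzyme and main sheddase of EGF receptor ligands, was called lower after miR-365a as well. Its brightest probe (mm9, chromosome 12, 21329437 to 21329378, minus strand) read -4.19 and -4.50 on miR-365a arrays, against -3.46 and -3.44 on NC arrays. After miR-193b it read -3.43 and -3.11, against -3.83 and -3.51. The miR-365a arrays were the lowest of all 8, and the miR-193b arrays lay above their NC arrays. The difference after miR-365a was -0.89 ± 0.18 (1.86-fold lower, limma adjusted p = 0.0263), and 0.40 ± 0.18 after miR-193b (limma adjusted p = 0.277). With normexp the size was -0.59 and in the deposited log2 values -0.51, both called (limma adjusted p = 0.0229 and 0.0456). The second probe, which starts at base 4350 of the transcript and the brightest one at 4342, gave -0.50 ± 0.27 after miR-365a, with a limma adjusted p of 0.273. Both falls, of Adam10 and Adam17, were no longer called when any 1 of the 4 arrays of the 0.6 set was left out (limma adjusted p of 0.0844 to 0.137 for Adam10 and 0.0713 to 0.137 for Adam17).

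Adam9, Adam15 and Adam12, further membrane proteases of the family, were not called. Adam9 (meltrin gamma) read 2.24 and 2.27 on miR-193b arrays, against 2.34 and 2.34 on NC arrays, and 1.87 and 1.87 on miR-365a arrays, against 1.84 and 1.94 on NC arrays. Its differences were -0.08 ± 0.10 and -0.02 ± 0.10, and neither passed (limma adjusted p = 0.676 and 0.935). Adam15 (metargidin) read 4.36 and 4.50 on miR-193b arrays, against 4.03 and 4.20, and 4.42 and 4.71 on miR-365a arrays, against 4.22 and 4.33. Every microRNA array of Adam15 lay above its NC arrays, with differences of 0.32 ± 0.15 and 0.29 ± 0.15 that did not pass (limma adjusted p = 0.271 and 0.241).

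Adam12 (meltrin alpha) read -1.89 and -1.28 on miR-365a arrays, against -3.42 and -2.46 on NC arrays. It read -3.66 and -4.33 on miR-193b arrays, against -3.95 and -4.57. Its miR-365a arrays were the highest of all 8, yet the difference of 1.36 ± 0.42 did not pass (limma adjusted p = 0.0793). It was called with normexp background correction (1.09, limma adjusted p = 0.0299) and in the deposited log2 values (1.11, limma adjusted p = 0.0289). The difference after miR-193b was 0.26 ± 0.42. Of its dimmer probes, 1 gave 1.24 after miR-365a, with a limma adjusted p of 0.41. The other read -6.08 and -4.99 on miR-365a arrays, against -7.37 and -6.18 on NC arrays. It was well above background on the miR-365a arrays alone, so no size is given for it.

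Of the remaining Adam genes tested, Adam32 was called. Adam32, a membrane ADAM known from testis and lacking a catalytic site, rose after miR-365a. Its probe (mm9, chromosome 8, 25946691 to 25946632, minus strand) read -3.54 and -3.94 on miR-365a arrays, against -5.44 and -5.41 on NC arrays. On miR-193b arrays it read -4.90 and -4.81, against -4.99 and -5.33. The miR-365a arrays stood above the other 6. The difference was 1.69 ± 0.18 after miR-365a (3.22-fold higher, limma adjusted p = 0.00492) and 0.31 ± 0.18 after miR-193b (limma adjusted p = 0.377). It was called whichever array was left out, with limma adjusted p of 0.00916 to 0.0354. Its size depended on the background correction and was 0.78 with normexp and 0.76 in the deposited log2 values, with limma adjusted p of 0.00437 and 0.00476. The second Adam32 probe was not above background on any array.

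The Adam genes not called in either microRNA comparison also include Adam4, Adam5, Adam6b, Adam8, Adam11, Adam19, Adam26b and Adam33. Their differences, on the brightest probes, lay between -0.34 (Adam11) and 1.29 (Adam6b) after miR-193b. After miR-365a they lay between -0.91 (Adam4) and 0.69 (Adam5). The second Adam11 probe gave 0.28 ± 0.24 after miR-193b (limma adjusted p = 0.518), opposite in sign. Adam6b was not well above background on the NC arrays of the 0.2 set and was above it on 1 of the miR-193b arrays, at -3.47, with the other at -5.95. Its higher level after miR-193b thus came from 1 array, and no fold is given for the group (limma adjusted p = 0.348). Without the dimmer array, miR-193b array 2, the difference was 2.53, against NC signals not well above background. Adam4 was not well above background on the miR-365a arrays, which lay below their NC arrays, so no fold is given (limma adjusted p = 0.233). Across the alternatives the fitted Adam4 difference after miR-365a lay between -1.25 and -0.14. Adam33 differed between replicates by more than between groups, at -1.28 and -4.34 on miR-193b arrays, against -4.63 and -2.37 on NC arrays.

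**Figure D3:**
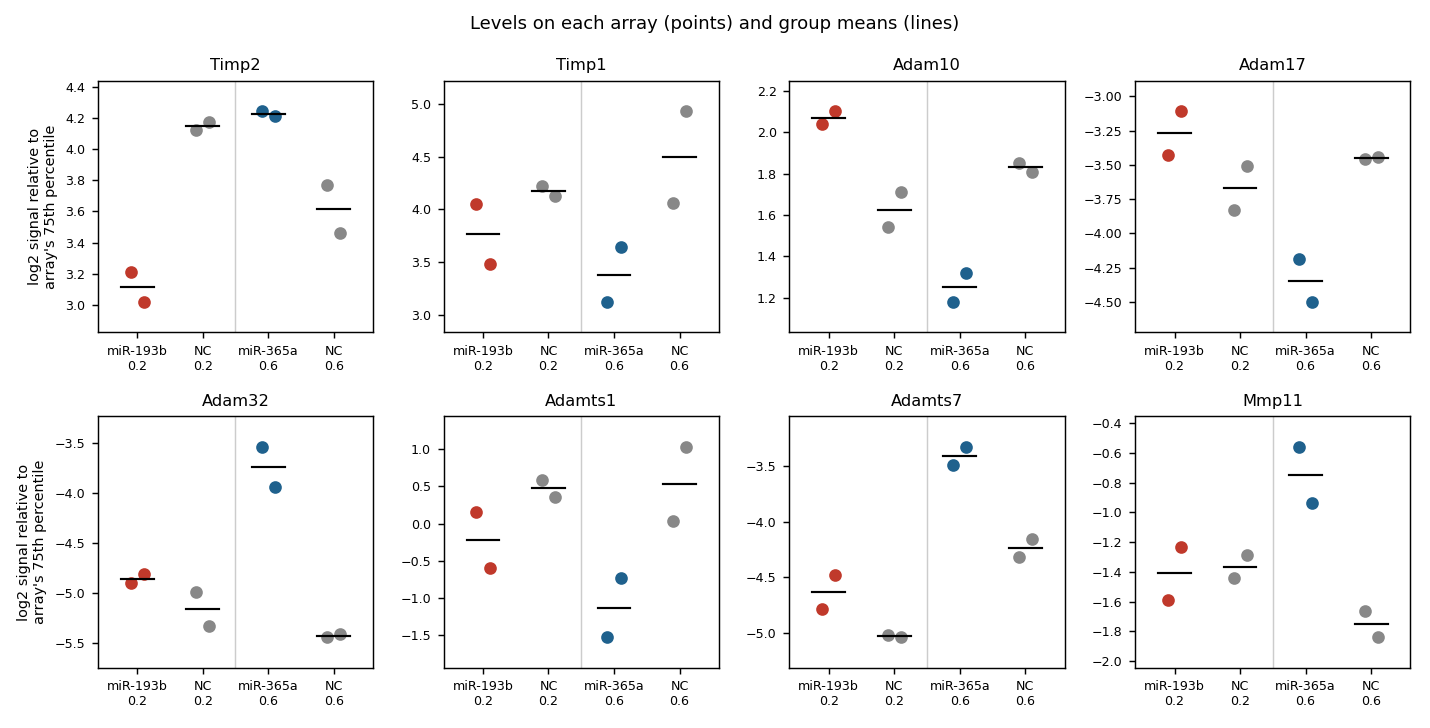
Level on each array (points, log2 relative to the array's 75th percentile) and group means (lines) of the 7 genes called in a microRNA comparison and of Timp1, with each microRNA left of its NC arrays (numbers give the amount label in µg). The Adam10 and Adam17 points of miR-365a lie below those of NC and the Adam32, Adamts7 and Mmp11 points above them, while the miR-193b and NC points of Mmp11 overlap.

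Adamts1, which cuts versican and aggrecan, was called lower after miR-365a close to the threshold. Its probe (mm9, chromosome 16, 85795103 to 85795044, minus strand) read -1.53 and -0.73 on miR-365a arrays, against 0.04 and 1.03 on NC arrays. It read 0.16 and -0.60 on miR-193b arrays, against 0.59 and 0.36. In both sets the microRNA arrays lay below their NC arrays. The difference was -1.67 ± 0.44 after miR-365a (3.17-fold lower, limma adjusted p = 0.0498), and -0.69 ± 0.44 after miR-193b (limma adjusted p = 0.397). Leaving out any 1 of the 8 arrays ended the call (limma adjusted p of 0.0565 to 0.214), as did quantile normalization (limma adjusted p = 0.0526).

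Adamts7, which cuts cartilage oligomeric matrix protein, rose after miR-365a. Its probe (mm9, chromosome 9, 90094878 to 90094937) read -3.49 and -3.33 on miR-365a arrays, against -4.32 and -4.16 on NC arrays. On miR-193b arrays it read -4.79 and -4.48, against -5.02 and -5.04. In each set the microRNA arrays lay above the NC arrays, and the 0.6 set above the 0.2 set. The difference was 0.83 ± 0.15 after miR-365a (1.77-fold higher, limma adjusted p = 0.0178) and 0.39 ± 0.15 after miR-193b (limma adjusted p = 0.201). With normexp background correction the size after miR-365a was 0.46 and still called (limma adjusted p = 0.0385). Leaving out any 1 array of the 0.6 set ended the call (limma adjusted p of 0.0527 to 0.104).

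The other 5 Adamts genes tested were Adamts4 (an aggrecanase), Adamts8, Adamts10 (which binds fibrillin microfibrils), Adamts15 and Adamts17. Their differences after miR-365a, on the brightest probes, lay between 0.06 (Adamts8) and 0.53 (Adamts4). The second Adamts4 probe gave -0.57 ± 0.29 after miR-365a (limma adjusted p = 0.238), opposite in sign. After miR-193b Adamts4 differed by 0.04, and none of the 5 was called in either comparison. Adamts15 was not well above background on the miR-193b arrays, and no fold can be given there.

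Mmp11 (stromelysin-3), which furin activates before secretion, rose after miR-365a. Its probe (mm9, chromosome 10, 75386083 to 75386024, minus strand) read -0.56 and -0.94 on miR-365a arrays, against -1.66 and -1.84 on NC arrays. On miR-193b arrays it read -1.59 and -1.23, against -1.44 and -1.29, and these overlapped. The difference was 1.00 ± 0.19 after miR-365a (2.00-fold higher, limma adjusted p = 0.0208), and -0.05 ± 0.19 after miR-193b (limma adjusted p = 0.909). The second Mmp11 probe gave 1.02 ± 0.20 after miR-365a (limma adjusted p = 0.022). Leaving out any 1 array of the 0.6 set ended the call (limma adjusted p of 0.0536 to 0.106).

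Mmp14, the membrane-type collagenase, did not pass in either comparison. It read -0.76 and -0.94 on miR-193b arrays, against -0.66 and -0.99, and -0.84 and -0.32 on miR-365a arrays, against -1.18 and -0.58. Both pairs of groups overlapped, with differences of -0.02 ± 0.27 and 0.30 ± 0.27. Mmp17, a GPI-anchored MMP, differed by -0.68 ± 0.19 after miR-193b (limma adjusted p = 0.109, and 0.029 with those pairs of arrays as a random block). Across all alternatives Mmp17 differed by -0.92 to -0.02 after miR-193b, and no other alternative called it. After miR-365a it differed by -0.25 ± 0.19. Mmp24, a membrane-type MMP, differed by 0.10 after miR-365a, while its second probe gave -0.57 ± 0.25 (limma adjusted p = 0.178).

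Mmp9 (gelatinase B) read -1.70 and -1.61 on miR-193b arrays, against -2.34 and -2.35 on NC arrays. It read 0.08 and 0.79 on miR-365a arrays, against -2.16 and 0.48 on NC arrays. NC array 4 thus lay within the range of the miR-365a arrays. The difference after miR-365a was 1.28 ± 0.78 (limma adjusted p = 0.329), and it depended on which NC array entered. Without NC array 4 it was 2.60 (limma adjusted p = 0.0248), and without NC array 3 it was -0.04. After miR-193b it was 0.69 ± 0.78 (limma adjusted p = 0.631).

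The 10 genes named by the array as Mmp13, Mmp12, Mmp1b, Mmp3, Mmp1a, Mmp10, Mmp8, Mmp27, Mmp20 and Mmp7 lie in this order on mouse chromosome 9 and include the collagenases and stromelysins. Of these, 5 exceeded background clearly on 1 or more arrays. Mmp10 (stromelysin-2) and Mmp13 (collagenase-3) showed the same 4 arrays above background, miR-193b array 1, miR-365a array 2 and NC arrays 1 and 4. This pattern, taken from Mmp10 itself, was found in 4 of 30199 gene names (0.0132%), Mmp10 and Mmp13 among them, so the share is no test. Mmp10 read -3.99 and -6.26 on miR-193b arrays, against -3.66 and -7.69 on NC arrays of the 0.2 set. It read -6.89 and -4.20 on miR-365a arrays, against -7.12 and -3.09 on NC arrays of the 0.6 set. Its high arrays were thus 1 of 2 in every group.

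Mmp13 read -4.61 and -8.00 on miR-193b arrays, against -4.43 and -7.18, and -7.54 and -4.30 on miR-365a arrays, against -8.69 and -4.76. Both genes failed the filter and were not tested. Mmp3 (stromelysin-1) read -5.24 and -6.38 on miR-193b arrays, against -4.06 and -4.60, and -7.75 and -4.89 on miR-365a arrays, against -7.01 and -3.22. The miR-193b arrays of Mmp3 were not well above background and lay below their NC arrays, so no fold is given (limma adjusted p = 0.56). Across the alternatives the fitted Mmp3 difference after miR-193b lay between -2.05 and -0.24. The Mmp3 difference after miR-365a was -1.20 ± 1.39 (limma adjusted p = 0.64).

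Mmp1b, a mouse counterpart of human interstitial collagenase, read -3.39 and -3.80 on miR-193b arrays, against -2.71 and -2.98. It read -6.72 and -5.83 on miR-365a arrays, against -5.21 and -3.43. Every microRNA array lay below its NC arrays, and the difference after miR-365a was -1.96 ± 0.58 (limma adjusted p = 0.0715). On miR-365a array 1 Mmp1b was not well above background, so this size rests in part on a dim signal. The difference was -2.85 without NC array 3 and lay between -2.85 and -0.74 across the alternatives. After miR-193b it was -0.75 ± 0.58 (limma adjusted p = 0.484). Mmp27 was above background on miR-365a array 1 alone.

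The level of Mmp10 and Mmp13 differed more between pairs of arrays than between transfections, in both sets. In the 0.6 set the mean of miR-365a array 2 and NC array 4, at neighbouring positions of the slide, exceeded that of miR-365a array 1 and NC array 3 by 3.36 for Mmp10, 3.58 for Mmp13, 3.33 for Mmp3, 1.33 for Mmp1b and 1.68 for Mmp9. In the 0.2 set the mean of miR-193b array 1 and NC array 1, on 1 slide, exceeded that of miR-193b array 2 and NC array 2, on different slides, by 3.15 for Mmp10, 3.07 for Mmp13, 0.84 for Mmp3 and 0.34 for Mmp1b, while for Mmp9 the difference was -0.04. Differences past 2 on this scale were found in 0.185% of the 17865 genes tested in the 0.6 set and in 0.612% in the 0.2 set. Mmp10 and Mmp13 failed the filter and are not among those genes, so these shares are no measure for them. Their lower pairs were not well above background in either set, nor was that of Mmp3 in the 0.6 set, so those differences are not sizes. These pairs of arrays were formed after the values were seen, and what the paired arrays shared was not tested.

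**Figure D4:**
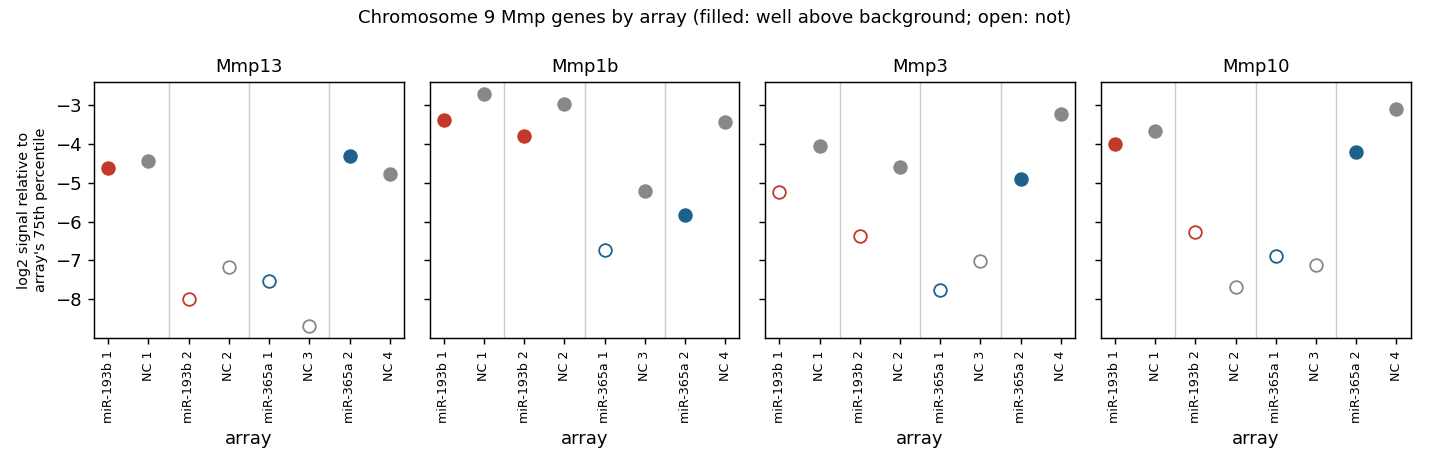
Level of Mmp13, Mmp1b, Mmp3 and Mmp10 on each of the 8 arrays (log2 relative to the array's 75th percentile), with each microRNA array left of the NC array paired with it and grey lines between the pairs; filled points are well above background. Mmp10 and Mmp13 are filled in the first and last pairs, and open in the middle ones.

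Most, but not all, genes of the cluster had a short motif in a promoter. TGAGTCA or its reverse complement TGACTCA, the consensus of the AP-1 factors, stood in the 300 bases around the start (most of them before it) of 7 of the 10 cluster genes (70%), of 3 of 39 other members with a promoter in the RefSeq table (7.69%), and of 5.95% of all 27025 genes there. Mmp8, Mmp20 and Mmp27 lacked these letters in this window. A gene counted if any of its listed starts had the motif, and for Mmp7 and Mmp12 another listed start lacked it. No other motif was searched for in the promoters. The AP-1 motif was not used to choose the genes, and a match is a description of the letters and not a bound site. The 120 bases before the start of the 4 plotted genes are shown, since their levels differed between the array pairs, with the motif in capitals (RefSeq, GRCm38.p6, plus strand for Mmp13, Mmp3 and Mmp10 and minus strand for Mmp1b, at chr9:7272394-7272513, chr9:7445702-7445821, chr9:7502222-7502341 and chr9:7388027-7388146).
Mmp13: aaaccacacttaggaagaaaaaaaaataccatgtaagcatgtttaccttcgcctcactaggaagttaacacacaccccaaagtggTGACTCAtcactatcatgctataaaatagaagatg
Mmp3: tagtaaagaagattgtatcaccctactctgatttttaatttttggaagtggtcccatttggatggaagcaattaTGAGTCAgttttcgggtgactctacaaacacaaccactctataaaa
Mmp10: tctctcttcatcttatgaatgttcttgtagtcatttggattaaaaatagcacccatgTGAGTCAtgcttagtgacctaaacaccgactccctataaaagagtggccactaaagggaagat
Mmp1b: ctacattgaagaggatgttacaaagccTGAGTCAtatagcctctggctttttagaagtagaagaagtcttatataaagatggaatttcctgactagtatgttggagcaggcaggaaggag

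The difference between the effects, miR-365a effect minus miR-193b effect, was tested in the same fit. It was called for Timp2, Adam32 and Adam10, 3 of 30, where 3.48% of all genes were called (1.09% higher and 2.39% lower). Without adjustment 7 of 30 passed 0.05, where 20.1% of all genes did. The difference of effects was 1.63 ± 0.20 for Timp2 (limma adjusted p = 0.0176), 1.38 ± 0.26 for Adam32 (limma adjusted p = 0.0451) and -1.02 ± 0.17 for Adam10 (limma adjusted p = 0.0337). On the second Timp2 probe it was 0.17 ± 0.24 (limma adjusted p = 0.737). Adam17 gave -1.29 ± 0.26, short of the threshold at a limma adjusted p of 0.0548, and Mmp11 gave 1.05 ± 0.27 (limma adjusted p = 0.0939). For Adam32 the call was lost with normexp (0.45, limma adjusted p = 0.165) and in the deposited log2 values (0.65, limma adjusted p = 0.0607). With 1 array left out, 0 to 3 genes were called. Among those 8 fits, Adam10 and Adam32 were called without NC array 2 and Timp2 without NC array 1 or 2. Adam6b was called without miR-193b array 2 (-2.28, limma adjusted p = 0.0472). The microRNAs were run in different sets, so this contrast cannot tell a difference between microRNAs from a difference in response between the sets.

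The NC arrays themselves differed between the sets. In the 0.6 set minus the 0.2 set, Adam26b (1.23), Adamts7 (0.79), Adamts17 and Mmp24 were called higher and Adam9 (-0.45) lower, 5 of 30, where 15.5% of all genes were called (11.6% higher and 3.98% lower). Without adjustment 11 of 30 passed, where 34.6% of all genes did. Adamts17 and Mmp24 were not well above background on the NC arrays of the 0.2 set. The median of the 30 was 0.32, against 0.12 over all genes tested. Levels are therefore compared only within a set.

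Genes that act on or with these proteases were counted beside them. Of 23 protease regulators tested, 1 was called higher and 1 lower after miR-193b, and 2 higher and 3 lower after miR-365a. Of all genes 1.71% were called higher and 1.14% lower after miR-193b, and 7.79% higher and 8.01% lower after miR-365a. The medians of the 23 were 0.14 and 0.12, against 0.05 and 0.02 over all genes. Furin, the convertase that removes the propeptides of ADAM10, ADAM17 and MMP11, read 0.17 and 0.31 on miR-365a arrays, against 1.31 and 1.63 on NC arrays, a difference of -1.23 ± 0.18 (limma adjusted p = 0.0105). Furin gave 0.36 ± 0.18 after miR-193b (limma adjusted p = 0.311). Rhbdf1 (iRhom1), which carries ADAM17 to the cell surface, fell by 0.80 ± 0.19 on the log2 scale after miR-365a (limma adjusted p = 0.036). Frmd8, which stabilises the iRhom and ADAM17 complex, rose by 0.67 ± 0.13 (limma adjusted p = 0.0202). Spint1, an inhibitor of matriptase and hepsin, fell after miR-193b and rose after miR-365a, with differences of -1.21 ± 0.17 (limma adjusted p = 0.0308) and 0.67 ± 0.17 (limma adjusted p = 0.0466). Hpn (hepsin) rose by 1.01 ± 0.16 after miR-193b (limma adjusted p = 0.0348).

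Of 31 known ADAM10 and ADAM17 substrates tested, 1 was called higher and 1 lower after miR-193b, where 1.71% and 1.14% of all genes were. After miR-365a 1 was called higher and 6 lower, where 7.79% and 8.01% of all genes were. The medians were 0.08 and -0.18, against 0.05 and 0.02 over all genes. The 6 that fell after miR-365a included the EGF receptor ligand Tgfa, the hyaluronan receptor Cd44 and the ephrin Efnb1. Tgfa read -4.18 and -4.42 on miR-365a arrays, against -2.86 and -3.0 on NC arrays, a difference of -1.37 ± 0.14 (limma adjusted p = 0.00479). Cd44 read 1.66 and 1.62, against 2.99 and 3.72, a difference of -1.71 ± 0.23 (limma adjusted p = 0.00832). Efnb1 gave -1.18 ± 0.13 (limma adjusted p = 0.00519). F11r, a tight junction protein, rose after both, by 0.91 ± 0.12 after miR-193b (limma adjusted p = 0.0268) and by 0.86 ± 0.12 after miR-365a (limma adjusted p = 0.00862). Axl, a receptor tyrosine kinase, read 2.25 and 2.27 on miR-193b arrays, against 3.90 and 4.00, a difference of -1.69 ± 0.10 (limma adjusted p = 0.0114).

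Of 17 matrix substrates tested, 0 were called after miR-193b, where 4 passed an unadjusted p of 0.05 in limma and 21.3% of all genes did. After miR-365a 1 of 17, Spp1 (osteopontin), was called higher, at 0.86 ± 0.19 (limma adjusted p = 0.0303), where 15.8% of all genes were called. The medians were 0.03 and -0.29, against 0.05 and 0.02 over all genes. Of the 7 relatives outside the name rule, such as the ADAMTS-like genes, 3 were tested and 0 were called in limma after either microRNA, where 2 passed an unadjusted p of 0.05 after miR-193b and 0 after miR-365a.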

How the data were processed

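Total RNA of 8 samples gave spot intensity values in the authors' scanner files, which per the file headers come from Agilent Feature Extraction 10.7.3.1; its processed signal, used here, has the background of each array already subtracted. The authors also deposited a table of log2 values of the same arrays, made with limma per the submitters' processing notes, with array medians from 7.04 to 7.05. It matched the scanner values array by array (r of 0.965 to 0.981 across spots), and its background correction is not given in the sources used here. It served as an alternative.

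Control and outlier-flagged spots were left out, the 75th percentile of an array's gene spots was subtracted from its log2 processed signals, and replicate spots were averaged by probe. The fit used limma 3.58.1 (lmFit, eBayes) under R 4.3.3, over all 8 arrays, its terms being the set, miR-193b and miR-365a (4 residual degrees of freedom, prior 2.31), tested on simulated data. Adjustment followed Benjamini and Hochberg across the 17865 genes tested. Errors are standard errors of this fit. Called members, every TIMP and the best-known MMPs and ADAMs that were tested have values on every array, and other tested members are given by ranges. From each list up to 4 called genes with the smallest p were named per comparison, and Spint1 was named in both. Some genes of these lists are not reported here. The members, lists and naming rule were chosen with earlier results of these data known. The microRNA and promoter sequences are RefSeq's; promoters were found for 49 of the 79 members. Alternatives were normexp background correction (offset 50), quantile normalization, the deposited values, other filters, a trended variance, slide and neighbouring arrays as random blocks, each set alone, other probes and leaving out each array. Figures were drawn with Python 3.11.15 and matplotlib 3.10.9. With 2 arrays per group and set, their number limits the precision.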

Additional observations from a re-analysis of the deposited data

Results flagged for a closer look

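Among the 4 NC arrays, 6 of the 45 members with any array well above background and a value on all 4 had 1 array far from the other 3, judged by its gap to the nearest array against the whole range. Chance does this in about 1 in 20 groups drawn without regard to their values. That rate cannot be read against this count, because Adam3, Adam30, Adamts2 and Timp3 were above background only on the array that stands apart, and because the NC arrays span both sets. NC array 4 stood above the others for Adam3 at -5.00, for Adam30 at -5.07 and for Mmp9 at 0.48, where the other NC arrays of Mmp9 lay between -2.35 and -2.16. NC array 1 was the high one for Mmp15 at -4.05 and for Timp3 at -2.67. NC array 2 was the high one for Adamts2 at -0.38, with -8.43 to -7.64 on the other NC arrays. Of these genes, Mmp9 was tested in the comparisons, and the other 5 did not pass the filter on dim probes.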

How the results depend on the processing

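Adam32 was called after miR-365a under every alternative with a test, at 0.76 or more. Timp2 reversed after miR-193b on its second probe (0.32). Counts of members called after miR-193b, miR-365a, between the effects and between the NC arrays were 1, 7, 3 and 5. Without the filter on dim probes they were 0, 1, 0 and 0, with neighbouring arrays as a random block, chosen after seeing the data, 4, 11, 5 and 4, and at an unadjusted p 6, 11, 7 and 11. The count after miR-193b was 0 with each set alone. The count between the NC arrays was 2 with normexp, 3 in the deposited values and 1 with slide as a block. With 1 array left out the counts were 0 to 1, 1 to 5, 0 to 3 and 0 to 5.

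Over all genes, 510, 2822, 622 and 2776 were called. After miR-193b the count was 973 with normexp, 844 in the deposited values, 11 without the filter, 875 with genes above background on all arrays, 1038 with a trended variance, 3047 with neighbouring arrays as a block, 0 with the 0.2 set alone (limma) and 3807 unadjusted. After miR-365a it was 1064 without the filter, 5713 with neighbouring arrays and 5577 unadjusted. Between the effects it was 1051 with normexp, 990 in the deposited values, 0 without the filter, 1074 above background on all arrays, 1129 with a trended variance, 1019 with slide as a block, 2760 with neighbouring arrays and 3596 unadjusted. Between the NC arrays it was 1030 without the filter, 1377 with slide as a block and 6176 unadjusted. With 1 array left out the counts were 9 to 276, 588 to 2845, 0 to 555 and 484 to 2406. The cause of these shifts was not tested.

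The median of all genes in the difference between the effects was -0.02, against -0.13 with normexp and 0.03 both with quantile normalization and in the deposited values. No paired analysis was possible because the labels give no replicate numbers and so pair no arrays. The pairs called neighbouring arrays above sit at adjacent positions of slide 4 in the 0.6 set. In the 0.2 set 1 pair shares slide 1, at positions 1 and 4, and the other lies on slides 2 and 3. These pairs as a block added the calls of Adam10, Adamts17 and Mmp17 after miR-193b. They also added Adam5, Adam12, Mmp1b and Timp1 after miR-365a, and Adam17 and Mmp11 between the effects. Adamts17 was not well above background in the 0.2 set. Signal over background limits the 49 members that did not pass the filter: a change in them was not detectable here, which does not show that they are absent.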
